A study of Mus musculus with 6 samples.

Results

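The regions described here are the places in the genome where a non-specific antibody gave a peak in both of 2 mouse embryonic stem cell lines. They come from rabbit IgG chromatin immunoprecipitation (ChIP-seq) in wild-type J1 cells (WT) and in cells with DNA methyltransferases knocked out (TKO). They were chosen by their positions alone, as WT rabbit IgG peaks that overlap a TKO rabbit IgG peak by 1 bp or more. Of 402 WT IgG peaks, 252 met this rule (62.7%, exact 95% binomial interval 57.8 to 67.4). Their TKO partners numbered 248 of 1057 TKO IgG peaks (23.5%, 20.9 to 26.1). The 6 lists of the series hold 7165 peaks in all, from rabbit IgG, anti-ATRX and anti-DAXX precipitates of each line.

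Both lines were kept in medium with inhibitors of MEK (PD0325901, 1 µM) and of GSK3 (CHIR99021, 3 µM), and were fixed in 4% paraformaldehyde for 10 min. The groups used were WT with rabbit IgG, TKO with rabbit IgG, and, for distances, WT and TKO each with anti-ATRX and with anti-DAXX. The labels do not say whether a line is 1 clone. Each group was 1 library, so no difference between groups has a replicate check and no test was made. The depth of the libraries is unknown, and a tag (read) count in 1 line is therefore not on the same scale as in the other.

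Rabbit IgG binds no chosen chromatin protein. A precipitate with it shows which stretches of DNA are recovered or counted in excess whatever the antibody, and peak callers use such libraries as a measure of background. Sequences that occur in many near-identical copies, or that an assembly holds in fewer copies than the cells do, are known to collect such background. ATRX, a chromatin remodeller, and DAXX, its partner and a chaperone of histone H3.3, act at repeated DNA in embryonic stem cells, which is why the place of the background bears on this series. The DNA methyltransferases add methyl groups to cytosine and help to silence repeats.

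Since the members were selected on position, the counts above are descriptions. No member sat near the limit of the rule. The smallest overlap was 129 bp, the whole of a WT peak on chromosome 6 from 114,473,442 to 114,473,570, and the next smallest were WT peaks of the same length on chromosome 6 that start at 114,527,017 and 114,534,193. On the other side of the limit, 4 WT peaks on chromosome Y, starting at 426,281, 2,097,879, 2,168,231 and 2,398,967, each lay 64 bp from a TKO IgG peak. Of the 150 WT IgG peaks without a partner, 15 lay within 500 bp of a TKO IgG peak. The share of WT IgG peaks with a partner was 35.6% (26.4 to 45.8) among the 101 lowest-scoring WT peaks, 59% (48.7 to 68.7) among the next 100, 78% (68.6 to 85.7) among the 100 after those and 78.2% (68.9 to 85.8) among the 101 highest. Of the 25 WT peaks that scored 200 or more, 24 had a partner. The score is the authors' value, a p-value of the peak caller written as -10 times its log10.

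The common peaks held more tags and were longer in the TKO library, while their fold enrichment over the caller's background was lower. WT peaks of the common set held between 11 and 355 tags, with a median of 39.5, and their TKO partners between 14 and 1146, with a median of 69. Taking each WT peak with its partner of largest overlap gave 252 pairs, in which the TKO count was higher in 230 and lower in 22. The TKO over WT ratio of tags had a median of 1.67 and quartiles of 1.33 and 2.14. The authors' fold enrichment went the opposite way, lower in TKO in 234 of 252 pairs, with a median of 71.3 in the WT peaks and 31.1 in the TKO partners. The score was higher in TKO in 195 pairs and lower in 57. Scores and fold enrichments depend on the depth and background of each call, so none of these is a measure of change in the cells. The peaks without a partner differed between the lists in the same direction, with median tags of 26.5 in WT and 39 in TKO, lengths of 416 and 561 bp, and fold enrichments of 68.1 and 26.8.

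The libraries ranked these regions alike by tags and length, and less so by fold enrichment and score. Across the 252 pairs the logarithms of the tag counts correlated with r = 0.80 (Spearman's rho 0.78), those of the lengths with r = 0.81 (0.83), and those of fold enrichment and score less, with r = 0.66 (0.63) and 0.56 (0.41). These are correlations across regions within 1 WT and 1 TKO library. Many of the regions repeat each other's values, as described further on. With each set of repeated values counted once, r was 0.77 for tags over 194 regions.

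**Figure D1:**
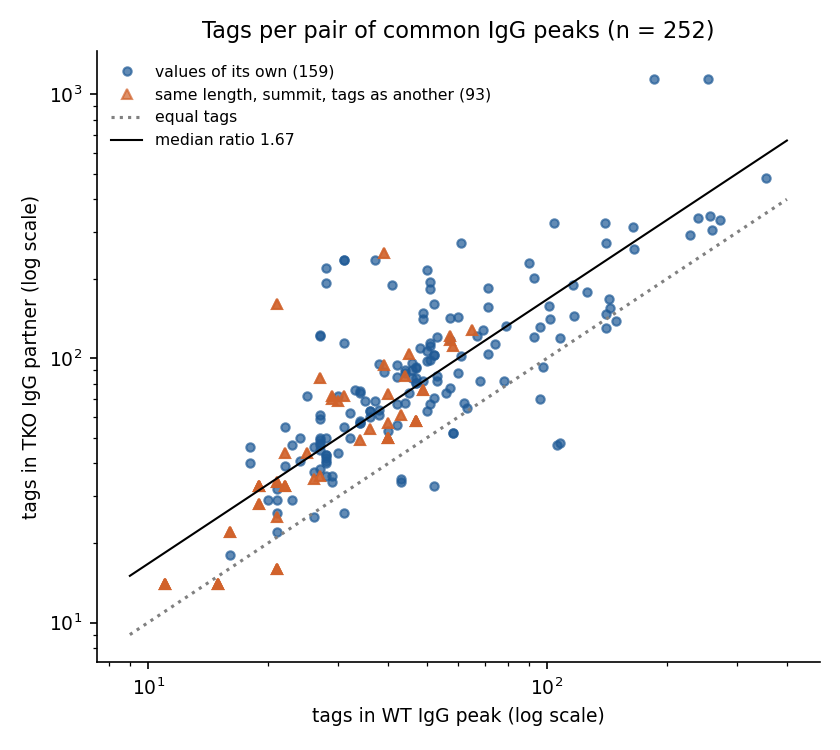
Tags of each common IgG peak in the WT library (x axis) against tags of its TKO partner (y axis), both on log scales. Each point is 1 of 252 pairs, and triangles are the 93 members that repeat another member's length, summit position and tags in both lines. Circles, labelled as having values of their own, are the other 159, some of which share these values with another member in the WT list. Most points lie above the dotted line of equal tags and scatter about the solid line at the median ratio of 1.67.

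Part of the tag ratio went with peak length. WT common peaks had a median length of 483 bp and TKO partners one of 612.5 bp. In 227 pairs the TKO peak was the longer, with a median length ratio of 1.245, and in 176 pairs (69.8%) the WT peak lay wholly inside the TKO peak. Per kb of peak, the ratio of tags had a median of 1.24, and it was above 1 in 196 pairs and below 1 in 56.

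A ratio of 2 or higher was seen in 75 of 252 pairs (29.8%), and one of at least 2 times the median in 19 (7.54%). In all 19 the TKO peak was more than 2 times as long, and in 0 of them did tags per kb reach 2 times the WT value. Over the 75 the pattern was mixed. The TKO peak was more than 2 times as long in 31 of them, and tags per kb were at least 2 times higher in 13 others. Among those 13 were 5 on chromosome 4, 5 in a cluster on chromosome 6 near 114 Mb and 1 on chromosome 2 from 169,412,989 to 169,413,964, where 49 WT tags over 976 bp met 148 TKO tags over 1140 bp, a per-kb ratio of 2.59. The highest ratio was on chromosome 17 from 6,607,135 to 6,607,653, with 28 WT tags over 519 bp and 220 TKO tags over 3357 bp. Its ratio of 7.86 (counting interval 5.29 to 12.1) became 1.21 per kb. Next were regions on chromosome 4 that start at 145,880,770 and 146,426,125, each with 21 WT and 161 TKO tags, a ratio of 7.67 (4.85 to 12.7) that became 1.30 per kb. The other members named by this rule were chromosome 17 from 6,648,975 to 6,649,493, with 31 and 236 tags, and from 6,811,958 to 6,812,476, with 31 and 235. Per kb these came to 1.12 and 1.16. The TKO peak of 236 tags was also the partner of the next WT peak, from 6,650,122, with 37 tags, so its ratio sets the whole TKO count against a part of the WT signal. The intervals cover counting error only.

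At the lower end, 2 pairs (0.794%) had a ratio of 0.5 or lower, and 10 pairs (3.97%) one of at most 0.5 times the median. The lowest was on chromosome 17 from 46,257,684 to 46,258,740, with 106 WT and 47 TKO tags, a ratio of 0.44 (0.31 to 0.63). Chromosome 5 from 150,348,998 to 150,349,503 held 108 and 48 tags, a ratio of 0.44 (0.31 to 0.63). Here the peaks had nearly the same length, 506 bp in WT and 485 bp in TKO, so the ratio per kb was much the same, 0.46. Chromosome 14 from 10,517,992 to 10,518,271 held 52 and 33 tags, a ratio of 0.63 (0.40 to 1.0005), and chromosome 1 from 193,379,154 to 193,379,834 held 96 and 70, a ratio of 0.73 (0.53 to 1.003). The fifth lowest, on chromosome 4 from 88,425,923 to 88,426,109, held 21 and 16 tags, a ratio of 0.76 (0.37 to 1.53). It tied with 3 further members of 1 set of repeated values on chromosome 4, and these 4 made up 4 of the 10 low pairs. All 5 ratios stayed below 1 per kb of peak. With depth unknown, a ratio of 1 does not stand for no change.

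The summits, the bases of highest tag pile-up, mostly lay near each other in the WT and TKO lists. Pairs were chosen by overlap, and most WT peaks lay wholly inside their partner. That alone limits how far apart summits can be. The median distance between the summits was 17 bp, or 23 bp with each set of repeated values counted once. They lay within 10 bp of each other in 103 pairs (40.9%), within 50 bp in 163 (64.7%) and at the same base in 8. In 45 pairs (17.9%) they were over 200 bp apart, and the farthest were 1454 bp apart. The shift had no common side, with a median of -1 bp (TKO minus WT).

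**Figure D2:**
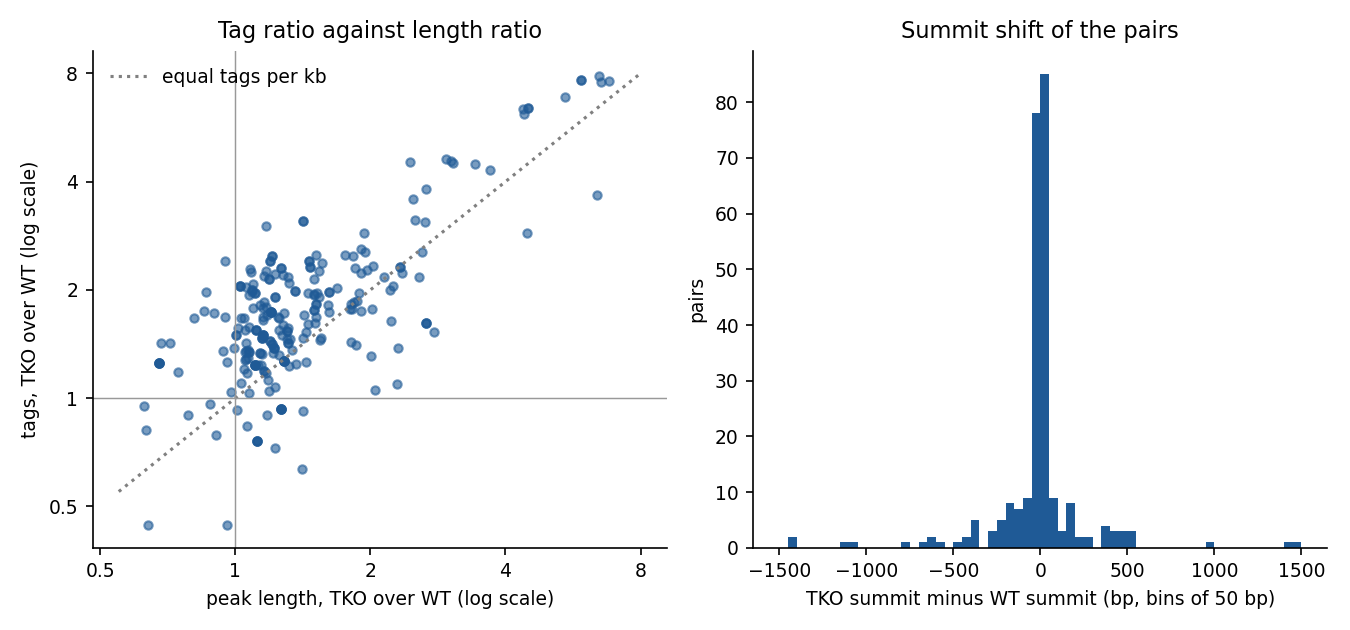
Left, the TKO over WT ratio of tags against that of peak length for the 252 pairs, on log scales, with a dotted line where tags per kb are equal; of the 75 pairs with a tag ratio of 2 or higher, 31 had a TKO peak more than 2 times as long. Right, a histogram of the TKO minus WT summit position in bins of 50 bp, with most pairs in the bins next to 0.

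The member with the best mean rank by tags lay on chromosome 6 from 47,693,300 to 47,694,320. It held 355 WT and 481 TKO tags, with summits at the same base. From the same stretch of chromosome 6 came 3 more of the 10 with the best rank. The region from 47,702,324 to 47,703,014 held 256 and 345 tags, that from 47,689,377 to 47,690,060 held 240 and 341, and that from 47,712,380 to 47,713,446 held 259 and 306. These 4 ratios, between 1.18 and 1.42, lay below the median of the common set. On chromosome 18, neighbouring WT peaks from 4,195,244 to 4,196,216 (186 tags) and from 4,196,273 to 4,198,020 (253 tags) fell inside 1 TKO peak of 4278 bp with 1146 tags. Their ratios of 6.16 and 4.53 set that whole TKO count against a part of the WT signal.

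The remaining 4 of these 10 lay apart from each other. Chromosome 8 from 27,079,912 to 27,080,479 had the highest WT score of the set (1356) and a WT fold enrichment of 400, with 272 WT and 334 TKO tags. Its ratio was 1.23 (1.04 to 1.45), and per kb it was 0.93, so the direction turned with the scale. Chromosome 15 from 91,737,399 to 91,738,742 held 229 and 293 tags, and its TKO partner scored 1340.71. Chromosome 2 from 20,821,474 to 20,822,017 held 164 and 313, and chromosome 5 from 125,866,423 to 125,867,668 held 165 and 260. All 10 of these members had more tags in the TKO library.

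Many common peaks repeated one another's values exactly. In the WT list, 107 of the 252 members (42.5%) shared their length, summit position and tag count with another member, and 82 shared the score and fold enrichment too. Among the TKO partners 94 of 248 (37.9%) shared length, summit position and tag count, and 77 shared the score and fold enrichment too. Taking both lists together, 93 members (36.9%) repeated another member's length, summit position and tags in both lines. They formed 35 sets, of which 32 lay on a single chromosome, and 24 were sets of 2. Such repeats were not particular to the common peaks. Of the WT peaks without a partner 44 of 150 (29.3%) shared these values with another of them, and of the TKO peaks without a partner 260 of 809 (32.1%) did. The files hold no reads, and whether members of a set share reads was not tested.

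The sets of 5 show how exact the repetition of length, summit position and tags was. On chromosome 6, peaks of 129 bp starting at 114,473,442, 114,527,017, 114,534,193, 114,553,980 and 114,573,747 each held 11 WT tags, and each TKO partner was 166 bp long with 14 tags. On chromosome Y, 5 peaks of 839 bp between 2,087,213 and 2,388,719 each held 40 WT and 50 TKO tags. A set on chromosome 14 had 178 bp peaks that start at 3,118,425, 4,171,492, 4,341,131, 4,573,648 and 4,801,152, each with 19 WT and 33 TKO tags. Peaks of 197 bp on chromosome 6 that start at 47,610,244, 47,614,605, 47,618,935, 47,627,587 and 47,631,905 each held 47 WT and 58 TKO tags. Scores were not always repeated. In WT they ran from 73.4 to 88.09 within the chromosome 14 set and from 188.1 to 226.55 within the set of 197 bp peaks. The fifth set was spread over 4 chromosomes. Its 153 bp peaks on chromosome 1 (from 110,311,320 and 151,359,302), chromosome 4 (from 102,554,142), chromosome 6 (from 87,357,968) and chromosome 17 (from 45,782,740) each held 15 WT and 14 TKO tags.

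Members in sets held fewer tags over shorter peaks than the others. Their WT peaks had a median of 29 tags over a median length of 218 bp, against 47 tags and 531 bp for the 159 members outside sets. Some of the 159 still repeat another member in part. Those on chromosome 17 from 6,667,254 and from 6,793,235 match in length and tags in both lines, but not in summit position. The median tag ratio was 1.5 in sets and 1.71 outside them, and the median distance between summits 9 and 27 bp. No set member held more than 65 WT tags. The median WT score was 88.1 both in and outside sets.

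On chromosome 4 an entire run of common peaks occurred again farther along. Between 145,822,128 and 145,961,102 lay 8 members, and each of them had a counterpart of the same length, summit, tags and score in both lines, displaced by 545,355 to 545,360 bp. The counterparts made up 8 of the 9 members between 146,367,484 and 146,514,163. From first to last these 8 held 36, 34, 39, 30, 21, 57, 45 and 58 tags in WT, and 54, 49, 94, 69, 161, 122, 104 and 111 tags in TKO. The ninth member of the later block, from 146,513,819 to 146,514,163, held 23 WT and 29 TKO tags. On chromosome 17, 2 sets likewise repeated at a fixed distance, 205,202 bp, with members from 6,675,122 and 6,680,430.

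Common peaks were concentrated on a few chromosomes. Chromosome 4 held 46 of the 252 (18.3%, 13.7 to 23.6), chromosome 6 held 38 (15.1%, 10.9 to 20.1), chromosome 14 held 30 (11.9%, 8.18 to 16.6) and chromosome 17 held 23 (9.13%, 5.87 to 13.4). Together these were 137 members, or 54.4% (48.0 to 60.6). The same 4 chromosomes held 34.7% (27.1 to 42.9) of the WT IgG peaks without a partner, 49.7% (46.2 to 53.2) of the TKO IgG peaks without a partner, and between 16.4% and 23.9% of the peaks in the ATRX and DAXX lists. They were chosen here because they held the most members, so these shares are a description. The intervals take peaks as independent, though many members are neighbours or repeats of each other. With members joined across gaps of at most 100 kb and each group counted once, the share was 39.3%. With each set of repeated values counted once it was 47.9%. The peaks without a partner were not recounted in these ways.

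Within those chromosomes the members lay in short stretches. On chromosome 4, 38 of 46 formed a chain with gaps of at most 1 Mb, from 145,288,018 to 147,073,543. On chromosome 14, 24 of 30 were in the first 10 Mb, and on chromosome 17, 18 of 23 were. Over all chromosomes 53 members (21.0%) lay in the first 10 Mb, against 34 of the 150 WT peaks without a partner (22.7%). Chromosomes 3, 9 and 19 held 1 member each. Of all chromosomes, chromosome 6 differed most between the common peaks (15.1%) and the TKO peaks without a partner (4.33%).

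**Figure D3:**
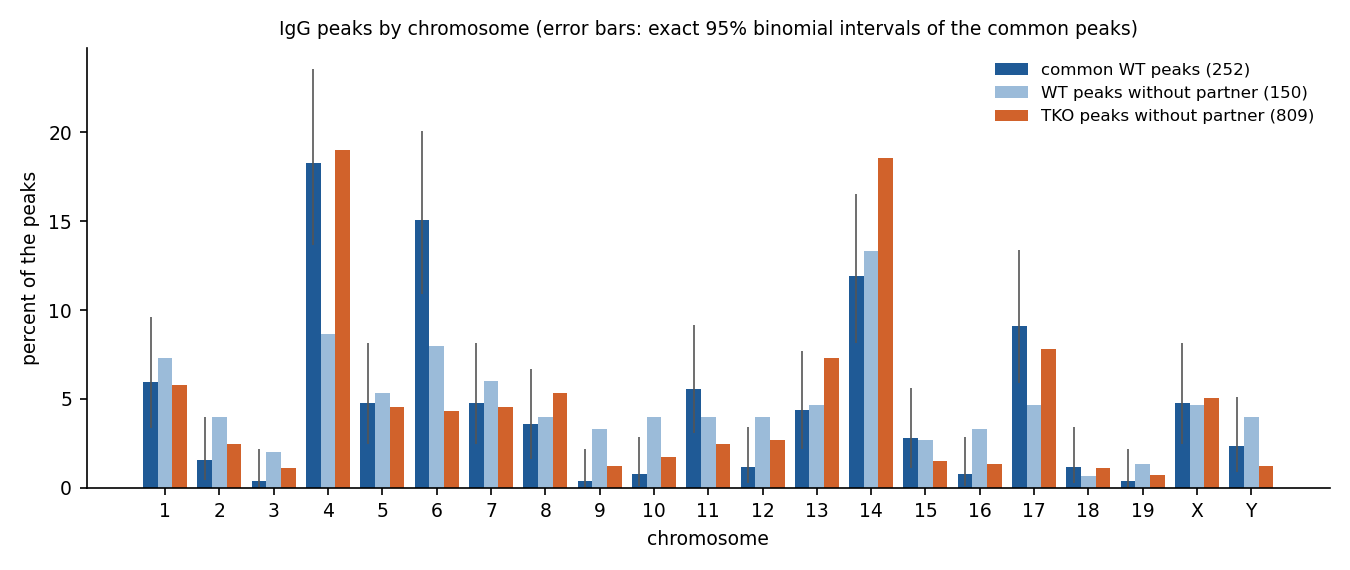
Percent of IgG peaks on each chromosome for the 252 common WT peaks, the 150 WT peaks without a TKO partner and the 809 TKO peaks without a WT partner. Error bars are exact 95% binomial intervals of the common peaks and cover counting error only. The common peaks reach 18.3% on chromosome 4 and 15.1% on chromosome 6.

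Joined where gaps were at most 100 kb, the 252 members made 112 groups, of which 76 were single peaks and 36 were clusters of 2 or more. The clusters held 176 members (69.8%, 63.8 to 75.4), and 12 clusters of 5 or more held 104 (41.3%). Of the WT peaks without a partner, 52 of 150 (34.7%) lay in clusters of 2 or more made in the same way and 0 in clusters of 5 or more. A list of 150 has fewer neighbours to join than one of 252. Members were also left out when these clusters were made, and 46 of the 150 (30.7%) lay within 100 kb of a member.

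The leading clusters, with 17 members each, lay on chromosome 17 from 6,573,252 to 6,886,071 and on chromosome 6 from 47,610,244 to 47,722,475. The one on chromosome 17 held 26 to 68 WT tags per peak, and its tag ratio ran from 1.21 to 7.86, falling to between 1.12 and 1.46 per kb. The one on chromosome 6 held 42 to 355 WT tags per peak, and its ratio ran from 1.18 to 2.05, or from 0.905 to 1.81 per kb. The range of the tag ratio was wider on chromosome 17, and that of the ratio per kb was wider on chromosome 6. Within the span of the chromosome 17 cluster there were 49 TKO and 19 WT IgG peaks in all, and within that of the chromosome 6 cluster 19 and 20. Over the whole lists there were 1057 TKO and 402 WT peaks.

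The next clusters were the 12 members on chromosome 6 from 114,447,431 to 114,576,706, with 11 to 71 WT tags, the blocks of 9 and 8 on chromosome 4 already described, and 8 members on chromosome 11 from 60,411,037 to 60,484,579, with 29 to 67 WT tags. In the cluster of 12 the median distance between WT and TKO summits was 1.5 bp, and on chromosome 11 it was 185 bp. Median tag ratios were 1.84 and 1.58. On chromosome Y, where 6 members lay between 2,051,019 and 2,388,719, the values fell into only 2 distinct patterns.

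**Figure D4:**
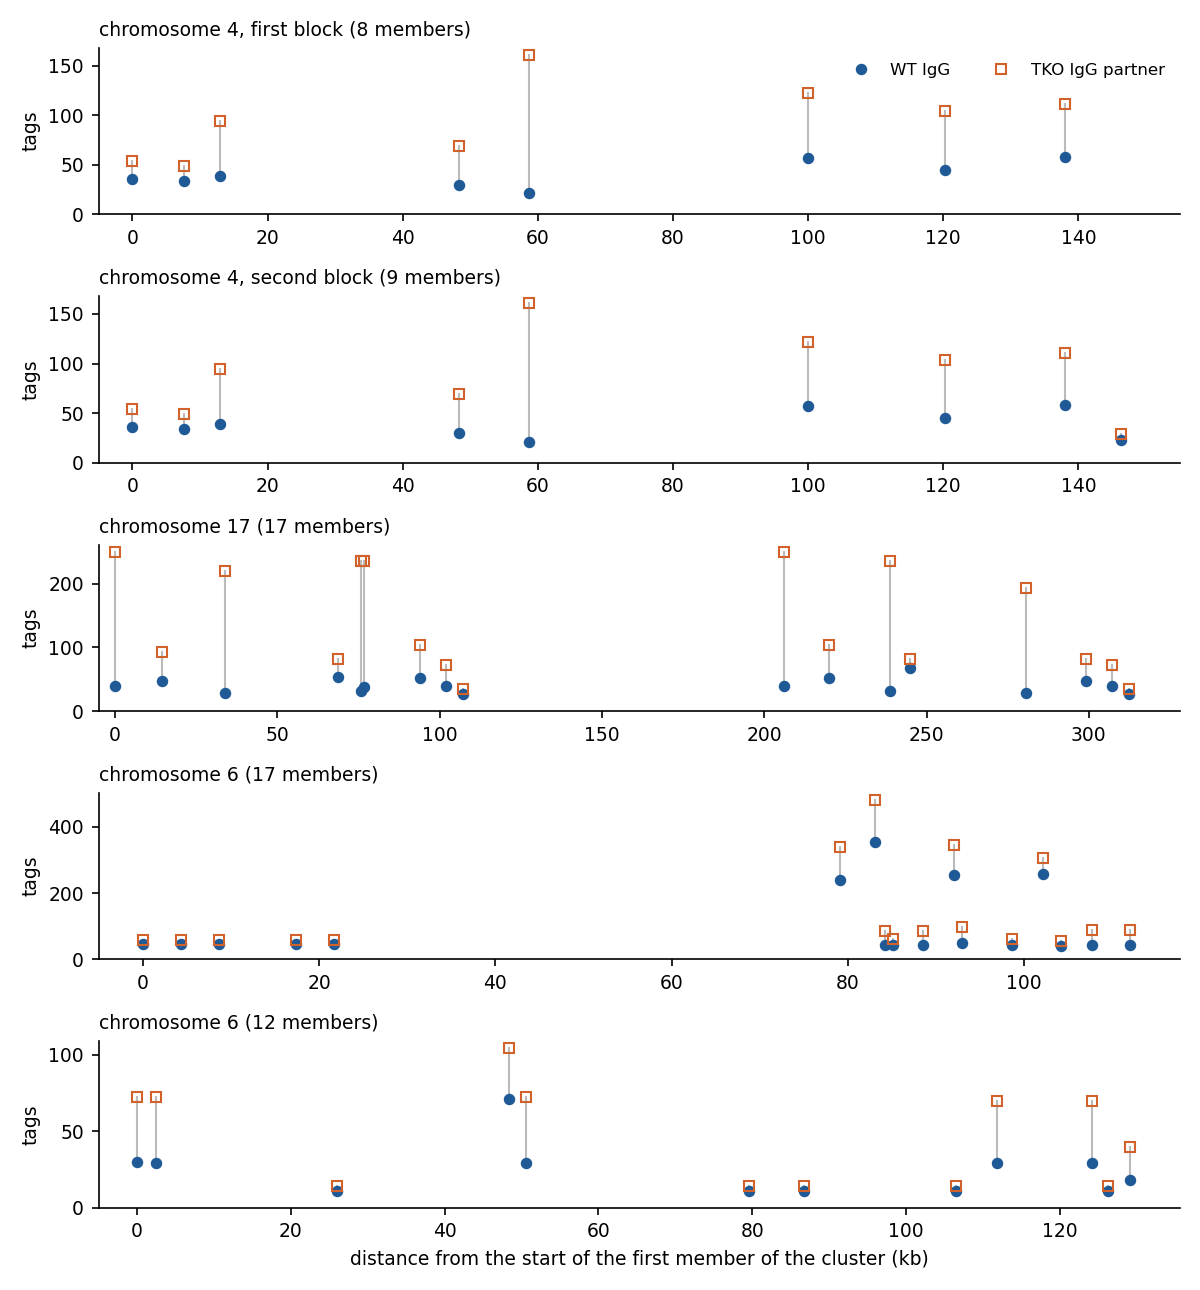
Tags of common IgG peaks (y axis, from 0) against distance in kb from the first member of their cluster (x axis), for the 2 blocks on chromosome 4 and the clusters of 17, 17 and 12 members. Filled circles are WT peaks, open squares their TKO partners, and grey lines join a pair. The first 8 positions and heights are the same in both chromosome 4 blocks.

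Few common peaks touched an ATRX or DAXX peak. The control used to call those lists is not known. If IgG was the control, such overlaps would be fewer by construction, so their number does not show that the sites lie apart. The WT ATRX list and the TKO DAXX list, under their labels, have 750 peaks in common with the same start and end, so they are not independent of each other. Overlaps of members numbered 1 with WT ATRX, 0 with WT DAXX, 1 with TKO ATRX and 1 with TKO DAXX. Among all 402 WT IgG peaks the shares were 0.249%, 0.249%, 0.746% and 0.498% in the same order. By the edges of the 248 TKO partners the overlaps numbered 1, 0, 1 and 2. A peak of any list was overlapped by 3 partners and by 5 of the 809 TKO peaks without a WT partner. By WT edges the members concerned were 2 regions. Chromosome 5 from 125,866,423 to 125,867,668 contained 2 peaks of 152 bp, from 125,866,703 and from 125,867,159, which were called in both the WT ATRX and TKO DAXX lists with scores of 71.13 and 77.69. They are identical peaks of those lists. Chromosome 6 from 47,712,380 to 47,713,446 contained a TKO ATRX peak of 759 bp that scored 83.71.

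Others came near. On chromosome 11 the member from 60,483,490 to 60,484,579 lay 89 bp from a TKO DAXX peak. Its TKO partner, from 60,483,341 to 60,485,092, overlapped that peak. The member from 60,476,747 to 60,477,202, also on chromosome 11, lay 1219 bp from a TKO DAXX peak. The WT peak on chromosome 5 from 125,867,797 lay 487 bp from the identical peaks named above, and chromosome 19 from 54,014,488 to 54,014,798 lay 1016 bp from a peak shared by the same lists. Chromosome 6 from 47,714,413 to 47,714,583 was 1039 bp from a TKO ATRX peak, and chromosome 11 from 87,275,367 to 87,276,104 was 1052 bp from a TKO DAXX peak. The repeated members on chromosome 4 that start at 145,880,770 and 146,426,125 were each 1250 bp from a TKO ATRX peak. Their distances were also alike to WT ATRX peaks (25,337 and 25,336 bp) and WT DAXX peaks (30,486 and 30,485 bp). To TKO DAXX peaks they were not (157,291 and 702,646 bp). For the members from 145,960,178 and 146,505,538 the distances to TKO ATRX peaks differed, 77,626 and 70,103 bp.

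Distances at longer range were compared with those of the other WT IgG peaks, without a test. The median distance to the nearest peak of the WT ATRX list was 288 kb, leaving out the 6 members on chromosome Y, where that list had none. It was 751 kb to WT DAXX, 191 kb to TKO ATRX and 379 kb to TKO DAXX peaks. For WT IgG peaks without a partner it was 304, 921, 270 and 416 kb. A peak of any of the 4 lists lay within 10 kb of 39 members (15.5%, 11.2 to 20.5), and 14.7% of all WT IgG peaks had one. Within 100 kb the numbers were 142 members (56.3%, 49.98 to 62.6) and 54.5%. List by list, in the order above, 57, 65, 74 and 49 members had a peak within 100 kb, and of all WT IgG peaks 22.4%, 22.9%, 28.4% and 20.1% did. Set against the 150 WT peaks without a partner, the share within 100 kb was 25.8% (20.5 to 31.7) against 18% (12.2 to 25.1) for WT DAXX, where the 2 differed most. These intervals take members as independent, though many are neighbours or repeats of each other. All 8 members of the first chromosome 4 block and their 8 counterparts, for example, had a WT DAXX peak within 30,486 bp. To the nearest peak of any list, the median distance was 77.3 kb for members and 95.3 kb for those without a partner. The lower quartiles, 17.9 and 37.8 kb, lay farther apart in proportion. Of those without a partner, 13.3% (8.34 to 19.8) had a peak of any list within 10 kb. Within 100 kb it was 51.3% (43.0 to 59.6), and both intervals overlap those of the members. With only ATRX and DAXX peaks that scored 100 or more, 17.5% of members (13.0 to 22.7) and 16.4% of all WT IgG peaks had a peak within 100 kb, and 14.7% (9.43 to 21.4) of those without a partner.

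**Figure D5:**
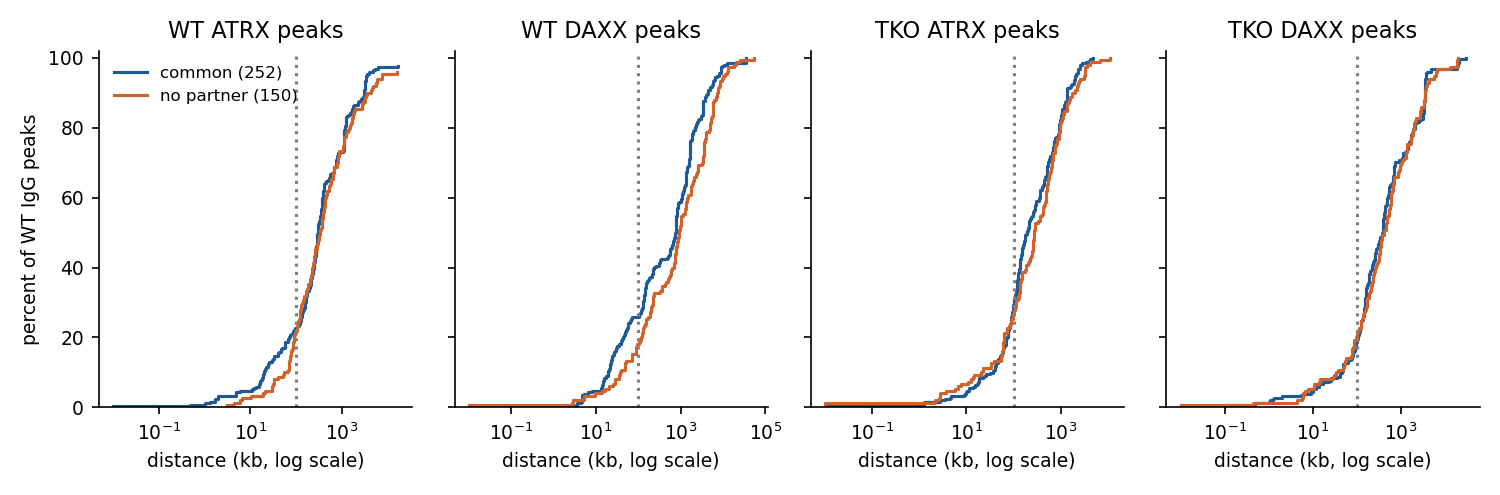
Percent of WT IgG peaks (y axis) with an ATRX or DAXX peak of the named list within the distance on the x axis (kb, log scale; overlaps are drawn at the left end). Lines are the 252 common peaks and the 150 without a TKO partner, and the dotted line marks 100 kb. At 100 kb the common peaks reach 22.6%, 25.8%, 29.4% and 19.4% from left to right.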

How the data were processed

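The deposited peak lists of 6 libraries (1 per group, from the sample titles) were used as the authors left them. Per the submitters' processing notes, Bowtie2, Picard and build mm9 were used, with no role or version stated. For the peak caller, its settings and controls were not given in the sources used here. Per the file headers, the IgG tables give tag counts per peak, length, summit, a score (10 times the negative log10 of a p-value) and a fold enrichment, a ratio to the caller's background. The ATRX and DAXX lists deposited by the authors give a score per peak without a header. BED starts were changed to count from 1.

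Overlaps, pairs, clusters (gaps of at most 100 kb) and edge-to-edge distances were computed in Python 3.11.15 with numpy 2.4.6, pandas 2.3.3 and scipy 1.17.1. Overlaps and pairs were checked on simulated peaks, and clusters on a small made-up example. The distances had no such check. Bedtools 2.31.1 gave the same 252 and 248 peaks. Intervals are exact binomial (Clopper-Pearson, 95%), also for tag ratios, and cover counting error only. Those of shares take peaks as independent, though many members lie in clusters or repeat each other. Library depth is unknown. The annotation and sequences at hand are of build GRCm38, so no genes or sequences were assigned to mm9 positions. Named regions were the 10 with the best mean rank by tags, 5 at each end of the tag ratio, the 5 leading clusters (6 with a tie), the 10 nearest an ATRX or DAXX peak, and 3 on each side of the overlap limit (4 outside it, which tied). Sets of 5, the pair on chromosome 2 with 148 TKO tags, members beside a named one and chromosome 4 blocks were chosen after their values were seen. The members and rules were chosen with earlier results of these data known.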

Additional observations from a re-analysis of the deposited data

How the results depend on the processing

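Of 31 recomputed summary values 18 stayed within their interval or within 1.5 times the count, and none of the ratios of the whole set changed direction. The number of common peaks was 76 with a score of at least 100 in each list and 137 in the upper 50% of each list, both fewer by construction. The median tag ratio was 1.54 with at least 50% of both peaks in common, 1.5 at a score of at least 100 and 1.24 per kb of peak. The median length ratio was 1.19 with 50% in common, and the median summit distance was 9 bp at a score of 100. The share on chromosomes 4, 6, 14 and 17 was 39.3% with each cluster counted once, 47.4% at a score of 100 and 47.9% with each set of repeated values counted once. A gap of 10 kb gave 174 groups. The share of members within 100 kb of an ATRX or DAXX peak was 17.5% for peaks scoring 100 or more, 48.2% with each cluster counted once and 54.0% without the peaks identical in 2 lists. For single named regions, tags per kb left 9 tag ratios within their interval and moved 10 outside it. It reversed 1, the ratio on chromosome 8, to 0.93. Counting repeated values once and removing identical peaks were chosen after the data were seen. No paired analysis was possible because each group held 1 library, and no replicate could be left out. Depth is unknown, so absence from a list does not show absence of signal.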

Other observations

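The IgG peaks with the most tags in each list had no partner in the other line. In the WT list this was chromosome 9 from 3,013,660 to 3,015,124, with 700 tags and a fold enrichment of 18.8, and the nearest TKO IgG peak was 25,573 kb away. In the TKO list it was chromosome 8 from 56,203,824 to 56,209,072, with 1526 tags over 5249 bp and a fold enrichment of 6.55, and the nearest WT IgG peak was 1788 kb away. A TKO peak on chromosome 16 from 57,391,208 to 57,392,027 held 535 tags, 1294 kb from any WT IgG peak. Other TKO peaks without a partner and with many tags lay nearer, on chromosome 4 from 146,735,790 (663 tags, 21.0 kb away) and from 147,009,552 (497 tags, 17.2 kb away). The second WT peak by tags without a partner, on chromosome 6 from 47,697,606 to 47,698,680 with 352 tags, lay only 141 bp from a TKO IgG peak, inside the chromosome 6 cluster of 17 members.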
